A study of Mus musculus with 60 samples.

Results

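The death receptor and TNF superfamily pathway was read here as 10 genes, chosen by symbol from the normalized matrix of a 770 gene neuroinflammation panel: the ligands Fasl and Tnfsf10, the receptors Fas, Tnfrsf1a, Tnfrsf1b, Tnfrsf10b and Tnfrsf25, and the adaptors Fadd, Tradd and Ripk1. All 10 had a row of values in each of the 56 samples analysed. The samples were hippocampus, hypothalamus and brain stem of 20 female Balb/C mice, 13 weeks old. Tumor-bearing mice had received 67NR cells, a single non-metastatic mammary carcinoma line, orthotopically in the inguinal mammary glands, and vehicle injected mice had received culture medium (DMEM) without cells. Tumor status was crossed with the time of collection, mid-dark (ZT19, hours from lights on) and mid-light (ZT7), for 4 groups of 5 mice. All were housed singly and perfused at collection 25 days after injection. Values were available for all 20 hippocampus samples, 17 of hypothalamus (3 vehicle injected at mid-dark and 4 at mid-light) and 19 of brain stem (4 vehicle injected at mid-dark). The labels give the samples left out as outliers in the raw data.

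Death receptors are membrane proteins whose cytoplasmic death domain gathers adaptor proteins once a ligand of the TNF superfamily binds. Fas and the TRAIL receptor Tnfrsf10b recruit Fadd, which brings in caspase-8 and can start apoptosis. Tnfrsf1a (TNF receptor 1) and Tnfrsf25 (death receptor 3) recruit Tradd and Ripk1 first, a platform that mostly activates NF-kB and survival genes and can turn toward cell death. Tnfrsf1b (TNF receptor 2) has no death domain. In brain, TNF receptors are found on neurons, glia and vessels, and Fas ligand and TRAIL are best known as effectors of cytotoxic lymphocytes.

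The values are log2 expression values, so a difference of 1 is a doubling. Each gene was read with its own probe, so levels are compared between samples and not between genes. Sample medians lay close together after quantile normalization by the authors. No count was analysed, so the depth is unknown and its part in the spread was not tested. The small number of mice also limits the precision. The defining markers mostly fitted the dissected regions. All 4 hippocampal markers (Slc17a7, Nrgn, Tbr1, Camk4) were higher in hippocampus than in both other regions, and Dlx1 and Dlx2 were highest in hypothalamus. The summed level of Dlx1 and Dlx2 had a median of 8.76 in hypothalamus and 7.78 in hippocampus. Of the markers chosen for brain stem, Slc17a6 is not reported here. The summed level of the oligodendrocyte markers was highest in brain stem. There the summed level of Dlx1 and Dlx2 had a median of 4.48 but reached 6.29 in a tumor-bearing sample at mid-dark. Whether that sample held tissue of another region was not tested. Ttr, the choroid plexus transthyretin gene, ranged from 5.36 to 14.7 between hippocampus samples and from 6.49 to 13.8 between brain stem samples. These are bulk tissues, in which fewer cells of a type and less RNA per cell cannot be told apart.

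A few patterns stood out among the members. Fas was higher in the hippocampus of tumor-bearing mice. Tnfrsf25 was higher at mid-dark than at mid-light over the 3 regions together. Its level in hippocampus was more than 10-fold that in both other regions, where it was low. The remaining tumor, time of day and interaction comparisons gave no member past an adjusted p of 0.05. The plot of all members by sample shows their values and the overlap of the groups.

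**Figure D1:**
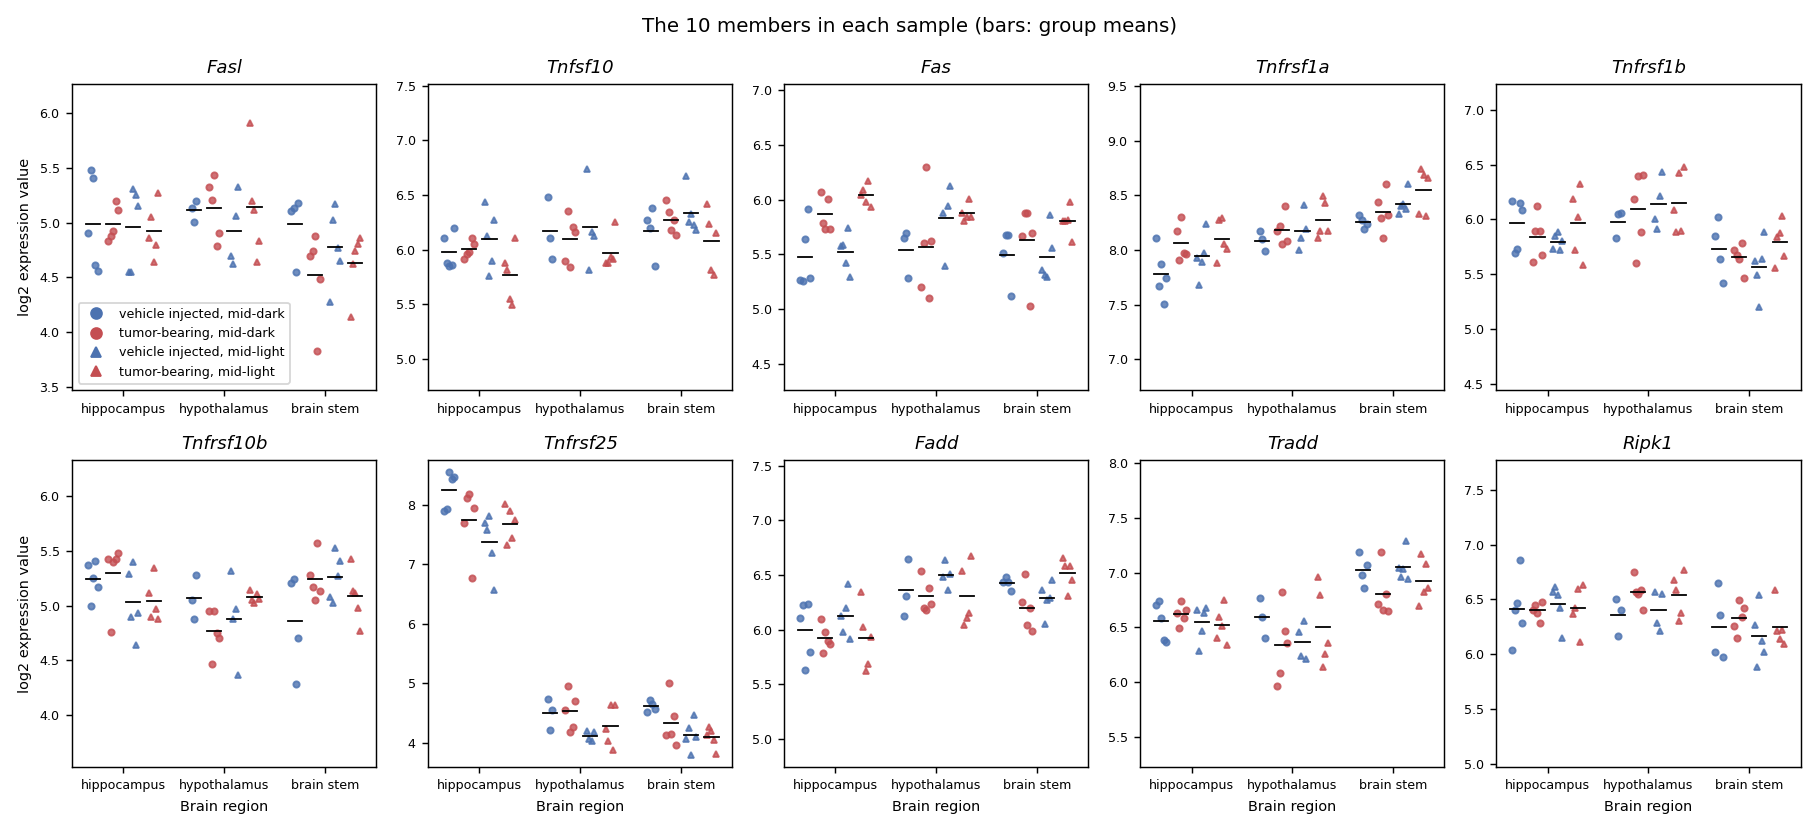
Log2 expression value (vertical axis) of each of the 10 genes in every sample, by brain region (horizontal axis), with circles for mid-dark, triangles for mid-light, red for tumor-bearing, blue for vehicle injected mice and black bars for group means. Tnfrsf25 lies between 6.57 and 8.55 in hippocampus and between 3.80 and 5.00 elsewhere, while the groups of most other genes overlap.

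The first question was where in the brain the pathway is read out. Regional differences were common on the whole panel. The limma test called 71.7% of the panel between hippocampus and hypothalamus, 76.6% between hippocampus and brain stem and 66.5% between hypothalamus and brain stem (adjusted p under 0.05, Benjamini-Hochberg over the panel, mouse as a random block). Of the 10 members, 5, 8 and 5 were called in these comparisons, shares near or below those of the panel. Centring on the 13 panel reference genes in place of the deposited scale moved the median of all genes by 0.11 between hippocampus and hypothalamus and by -0.13 between hypothalamus and brain stem, and calls it ended are named below. The RNA purity ratio of the labels (absorbance) was 2.26 to 2.42 in hippocampus, 0.44 to 2.19 in hypothalamus and 1.44 to 2.34 in brain stem, without overlap between the first and the second of these, and in brain stem the vehicle injected mice had a median of 2.12 against 1.85 with tumor. Its part was not tested beyond a fit with the ratio as a covariate. Over the members, the median log2 difference was -0.08, 0.09 and 0.04, beside -0.05, -0.03 and 0.02 over all genes.

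Among the ligands, Fasl (chr1:161780691-161788495, all coordinates GRCm38.p6 from RefSeq) encodes the membrane ligand of Fas. It was low everywhere, at 4.97 ± 0.299 (SD, n = 20) in hippocampus, 5.08 ± 0.329 (n = 17) in hypothalamus and 4.72 ± 0.358 (n = 19) in brain stem. Brain stem was the lowest, by 0.23 ± 0.10 (SE) against hippocampus (adjusted p = 0.0345) and by 0.35 ± 0.11 against hypothalamus (adjusted p = 0.00355), while hippocampus and hypothalamus did not differ beyond the test (adjusted p = 0.313). The hippocampus call was lost without any 1 of 8 mice, for example without mouse 19 (0.18, adjusted p = 0.102), and with centring on the panel reference genes (0.21, adjusted p = 0.0602), as was the hypothalamus call with that centring (0.22, adjusted p = 0.0688). Tnfsf10 (chr3:27317077-27339665), which encodes TRAIL, ran the other way. Its mean was 5.96 ± 0.227 in hippocampus, 6.10 ± 0.256 for hypothalamus and 6.22 ± 0.221 for brain stem. Hippocampus was below brain stem by 0.25 ± 0.065 (SE, adjusted p = 0.00055), and the neighbours in this order did not pass the test (adjusted p = 0.0542 and 0.168). The step between hippocampus and hypothalamus passed it with the filter on a mean log2 value of 5 (adjusted p = 0.0445) and without mouse 1, 6, 11, 28, 30 or 32 (adjusted p from 0.0207 to 0.0425).

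The regional order of the receptors differed from gene to gene. Fas (chr19:34290647-34327775) showed no called difference between regions, with 5.72 ± 0.301 in hippocampus, 5.71 ± 0.324 for hypothalamus and 5.60 ± 0.271 for brain stem (SD, n = 20, 17 and 19), and no pair of regions passed the test (adjusted p from 0.125 to 0.786). Tnfrsf1a (chr6:125349723-125362483), the broadly expressed TNF receptor, rose from hippocampus (7.97 ± 0.219) through hypothalamus (8.19 ± 0.151) to brain stem (8.40 ± 0.176). Each step was called. Hippocampus was 0.21 ± 0.051 (SE) below hypothalamus (adjusted p = 0.000331), a call that was lost with centring on the reference genes (-0.10, adjusted p = 0.141), and hypothalamus was 0.21 ± 0.052 below brain stem (adjusted p = 0.000378). Tnfrsf1b (chr4:145212368-145246870), the TNF receptor without a death domain, followed another order, with hypothalamus (6.10 ± 0.258) above hippocampus (5.89 ± 0.219) and brain stem (5.69 ± 0.209). Hypothalamus exceeded brain stem by 0.40 ± 0.076 (SE, adjusted p = 8.99e-06) and hippocampus exceeded brain stem by 0.21 ± 0.072 (adjusted p = 0.00892). The step of 0.20 ± 0.075 between hippocampus and hypothalamus (adjusted p = 0.0178) did not hold with reference gene centring (-0.09, adjusted p = 0.301) or without mouse 8 or mouse 29 (-0.17, adjusted p = 0.0579, and -0.15, adjusted p = 0.0624), and the one between hippocampus and brain stem did not hold with the RNA purity ratio of the labels as a covariate (0.17, adjusted p = 0.0614). Tnfrsf10b (chr14:69767472-69784411), the TRAIL death receptor, was low, at 5.15 ± 0.260 in hippocampus, 4.94 ± 0.253 for hypothalamus and 5.12 ± 0.303 for brain stem. Its hippocampal value exceeded the hypothalamic one by 0.20 ± 0.079 (SE, adjusted p = 0.0235), and leaving out mouse 4, 9 or 30 (adjusted p = 0.0503, 0.0546 and 0.066) or adding the purity ratio (adjusted p = 0.0517) ended that call.

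Tnfrsf25 (chr4:152115528-152120119), the receptor of the ligand TL1A, was the member with the largest regional difference. It had a median of 7.86 in hippocampus (lowest 6.57, highest 8.55, n = 20), against 4.23 in hypothalamus (3.88 to 4.95, n = 17) and 4.20 in brain stem (3.80 to 5.00, n = 19). No hippocampus sample overlapped any sample of the other regions. Levels in hypothalamus and brain stem were low, with every value under 5. Hippocampus was higher than hypothalamus by 3.40 ± 0.11 on the log2 scale (SE, 10.5-fold, adjusted p = 8.6e-32) and higher than brain stem by 3.47 ± 0.10 (11.1-fold, adjusted p = 3.12e-33). Hypothalamus and brain stem differed by 0.07 (95% interval -0.14 to 0.29, adjusted p = 0.572). The panel genes with the most similar profile over the 12 group means were Cyp7b1, an oxysterol hydroxylase (Pearson r = 0.992), Homer1, a postsynaptic scaffold (r = 0.991), and Nptx1, a neuronal pentraxin (r = 0.989). The groups share mice and regions, so these r are descriptions. The 4 hippocampal neuron markers moved with it, with a summed level of 14.1 to 14.7 in hippocampus, 10.8 to 11.4 in hypothalamus and 10.7 to 12.0 in brain stem, and their part in the result was not tested.

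The adaptors differed between regions as well. Fadd (chr7:144578323-144582441), the adaptor of Fas and of the TRAIL receptor, was lower in hippocampus (5.99 ± 0.226) than in hypothalamus (6.36 ± 0.208) and brain stem (6.35 ± 0.188), by 0.37 ± 0.062 (SE, adjusted p = 7.43e-07) and 0.36 ± 0.059 (adjusted p = 2.91e-07). Hypothalamus and brain stem differed by 0.0026 (95% interval -0.12 to 0.13, adjusted p = 0.971). Tradd (chr8:105258575-105264594), the adaptor of TNF receptor 1, was highest in brain stem (6.95 ± 0.194), by 0.39 ± 0.063 over hippocampus (6.56 ± 0.145, adjusted p = 2.56e-07) and by 0.51 ± 0.067 over hypothalamus (6.44 ± 0.282, adjusted p = 4.5e-09). Ripk1 (chr13:34002225-34035170), the kinase at the branch between NF-kB signalling and cell death, was lowest in brain stem (6.25 ± 0.216), by 0.18 ± 0.061 against hippocampus (6.42 ± 0.193, adjusted p = 0.00862) and by 0.23 ± 0.065 against hypothalamus (6.49 ± 0.177, adjusted p = 0.002). That last step fell to 0.09 with reference gene centring (adjusted p = 0.201). The summed level of the 6 oligodendrocyte markers was 16.4 to 16.5 in brain stem, 15.3 to 16.1 in hypothalamus and 14.4 to 15.7 in hippocampus, in parallel with the highest Tnfrsf1a and Tradd values, and its part in those results was not tested.

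The second question was whether a peripheral mammary tumor went with a change of the pathway in the brain. In hippocampus, 1 of 10 members was called for tumor against vehicle averaged over both times of day, where 0.52% of the panel was called, and in hypothalamus and brain stem 0 of 10 were called, where 0.26% and 1.04% of the panel were. At the unadjusted threshold of 0.05, 0 members passed in hypothalamus and 1, Tradd, in brain stem, beside 7.14% and 6.5% of the panel. In hippocampus 2, Fas and Tnfrsf1a, passed it, beside 6.37%. The single call was Fas.

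Fas in hippocampus was 5.73, 5.73, 5.79, 6.01 and 6.07 in the mid-dark tumor-bearing mice, and 5.25, 5.27, 5.28, 5.64 and 5.92 in vehicle injected mice at that time. At mid-light it was 5.93, 5.98, 6.05, 6.08 and 6.17 in tumor-bearing mice and 5.29, 5.42, 5.57, 5.59 and 5.74 in vehicle injected mice. At mid-light every tumor-bearing mouse lay above every vehicle injected mouse, and at mid-dark the groups overlapped through 1 vehicle injected animal, mouse 28 at 5.92. Averaged over both times, tumor-bearing mice had 5.95 ± 0.155 and vehicle injected mice 5.50 ± 0.229 (SD, n = 10 each), a log2 difference of 0.46 ± 0.085 (SE, 1.37-fold, 95% interval 0.28 to 0.63, limma adjusted p = 0.00763). In each of the 29 alternative settings and left-out mice the difference kept its direction and its call, between 0.41 and 0.56. Among these, the ordinary p under 0.05 without adjustment is a looser cut on the same fit and no separate check.

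**Figure D2:**
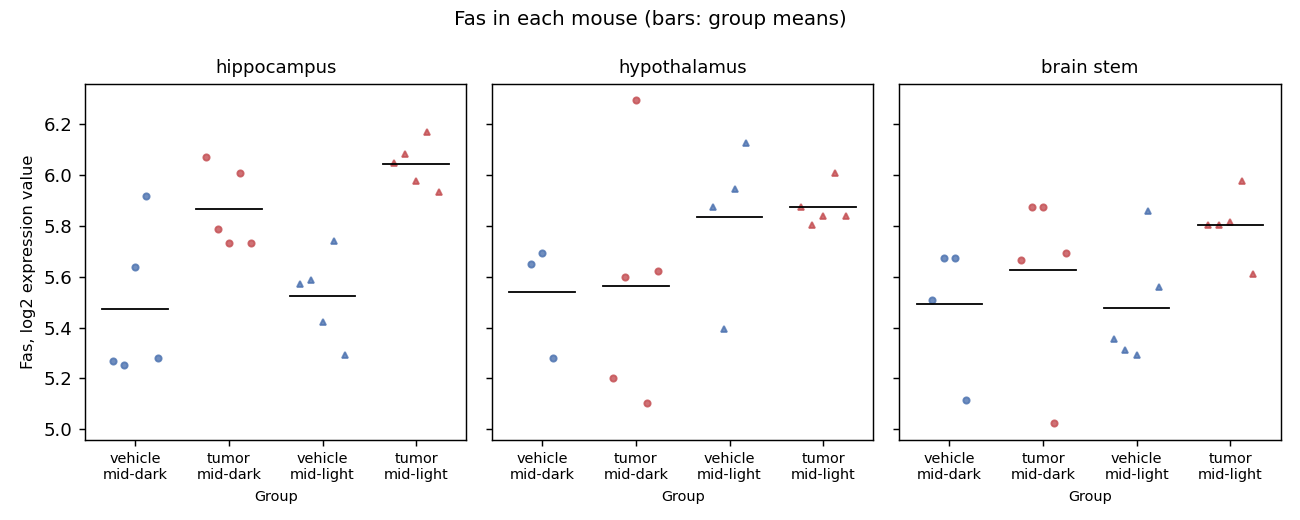
Log2 expression value of Fas (vertical axis) in every mouse of the 4 groups (horizontal axis) in the 3 regions, with circles for mid-dark, triangles for mid-light, red for tumor-bearing and blue for vehicle injected mice, and black bars for group means. In hippocampus the tumor-bearing mice sit between 5.73 and 6.17 and the vehicle injected mice between 5.25 and 5.92, while the groups overlap in hypothalamus and brain stem.

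At each time of day alone Fas did not pass adjustment in hippocampus. At mid-dark the difference was 0.39 ± 0.12 (SE, adjusted p = 0.344), and the mid-light difference was 0.52 ± 0.12 (adjusted p = 0.103). Without mouse 28 both were called, at 0.51 (adjusted p = 0.0498) and 0.52 (adjusted p = 0.0204), although mouse 28 is in neither mid-light group and enters that test only through the spread that the 4 groups share. At these single times 0 of 10 members were called in hippocampus, beside 0.13% of the panel at each time, and 2 of 10 had an unadjusted p under 0.05 at each, beside 6.63% of the panel at mid-dark and 6.89% at mid-light. The others were Tnfrsf1a at mid-dark (0.28 ± 0.12, adjusted p = 0.634) and Tnfsf10 at mid-light (-0.33 ± 0.13, adjusted p = 0.502).

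Fas in the other regions gave smaller values. In hypothalamus tumor-bearing mice had 5.72 ± 0.356 (SD, n = 10) and vehicle injected mice 5.71 ± 0.300 (n = 7), a difference of 0.03 (95% interval -0.28 to 0.35, adjusted p = 0.977). In brain stem they had 5.71 ± 0.266 (n = 10) and 5.48 ± 0.234 (n = 9), a difference of 0.23 (95% interval -0.01 to 0.47, adjusted p = 0.759). The brain stem of mouse 19, tumor-bearing at mid-dark, was apart from its group at 5.02. Over the 3 regions the Fas difference was 0.24 ± 0.076 (SE, adjusted p = 0.101), and without mouse 19 it was called (0.28, adjusted p = 0.016), as it was when the fit had no block for mouse (0.24, adjusted p = 0.0371). A test of whether the tumor difference varied between regions gave an adjusted p of 0.999 for Fas. A restriction of the Fas difference to hippocampus was therefore not shown. An equal difference in the 3 regions was not shown either, with 0.46, 0.03 and 0.23 in hippocampus, hypothalamus and brain stem. In that test 0 of 10 members and 0% of the panel were called, and 1 member and 3.77% of the panel had an unadjusted p under 0.05.

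The profile of Fas over the 12 group means was most like that of Ch25h, cholesterol 25-hydroxylase (Pearson r = 0.777), Nfkbia, the NF-kB inhibitor (r = 0.736), and Lrg1, a secreted glycoprotein (r = 0.653). These are the weakest leading correlations among the members beside those of Tnfrsf10b, whose best match was Osgin1 at 0.754. The marker lists gave few differences of their own between tumor-bearing and vehicle injected hippocampus. None of the 7 endothelial, 6 microglial, 7 neuronal, 4 astrocytic and 6 oligodendrocytic markers measured was called. The summed level of the 9 T and NK cell markers was 6.68 to 7.02 in tumor-bearing and 6.56 to 7.13 in vehicle injected mice, and that of the neutrophil markers Ly6g and Csf3r was 6.18 to 6.74 and 6.43 to 6.80. Ttr ranged from 5.36 to 14.6 in tumor-bearing and from 6.62 to 14.7 in vehicle injected mice. The Fas difference was 0.47 with Ttr as a covariate (adjusted p = 0.00316) and 0.56 without the 5 hippocampus samples with Ttr under 10 (adjusted p = 0.00152).

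Because Fas was the member that differed with the tumor and the study turns on time of day, its promoter is shown, from the RefSeq promoter table (GRCm38.p6, plus strand, chr19:34290409-34290646, ending 1 base before the annotated gene). Capitals mark the E-box CACGTG, the palindrome to which the circadian CLOCK and BMAL1 proteins are known to bind.

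Fas promoter: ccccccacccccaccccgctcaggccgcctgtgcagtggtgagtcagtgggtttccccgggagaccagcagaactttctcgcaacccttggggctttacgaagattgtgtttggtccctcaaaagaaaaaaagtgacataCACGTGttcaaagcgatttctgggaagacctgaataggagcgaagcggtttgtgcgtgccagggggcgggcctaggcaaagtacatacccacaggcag

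The E-box lay at chr19:34290549-34290554, with its last base 93 bases before the gene start. Promoter windows of 300 bases were at hand for 8 of the 10 members, and 1 of the 8, that of Fas, held CACGTG, against 7.15% of all 32851 mouse windows. The window of Tnfrsf25, the only member called by time of day, held none. A match of letters is a description and not a binding site. The mid-dark minus mid-light difference of Fas over the 3 regions was -0.16 ± 0.076 (SE), which did not pass adjustment (adjusted p = 0.152).

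Of the receptors other than Fas, Tnfrsf1a had the largest tumor difference in hippocampus averaged over both times of day. At single times that of Tnfrsf25 was larger, -0.51 ± 0.26 (SE, adjusted p = 0.717) for mid-dark and 0.31 ± 0.26 (adjusted p = 0.836) for mid-light, and neither passed. The Tnfrsf1a values ran from 7.88 to 8.30 (median 8.03) in tumor-bearing mice and from 7.50 to 8.24 (median 7.88) in vehicle injected mice (n = 10 each), which overlap. The difference was 0.22 (95% interval 0.04 to 0.40) and did not pass adjustment (adjusted p = 0.625). It was 0.10 in hypothalamus and 0.11 in brain stem (adjusted p = 0.795 and 0.894), and 0.14 ± 0.050 (SE) over the 3 regions (adjusted p = 0.151). Tnfrsf1a was thus higher in the tumor-bearing mean of each region without passing the test in any. Over the 3 regions 0 of 10 members were called for tumor against vehicle, beside 2.34% of the panel, and 2, Fas and Tnfrsf1a, had an unadjusted p under 0.05, beside 9.48% of the panel. The median over the members was -0.02 and over all genes -0.01.

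The ligands and adaptors gave no call with the tumor. Tnfsf10 had a negative difference in each region, -0.15 in hippocampus, -0.16 for hypothalamus and -0.08 for brain stem (adjusted p = 0.832, 0.824 and 0.977). Fasl was -0.02, 0.12 and -0.30 in the same order (adjusted p = 0.982, 0.888 and 0.759). Tradd in brain stem had a difference of -0.17 (95% interval -0.344 to -0.0033, adjusted p = 0.744). The intervals of the members not called reached at most -0.62 (Fasl, brain stem) and 0.47 (Fas, brain stem) in the comparisons averaged over both times, and larger differences lie outside these intervals. The plot of tumor differences shows how wide the intervals are beside the point values.

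**Figure D3:**
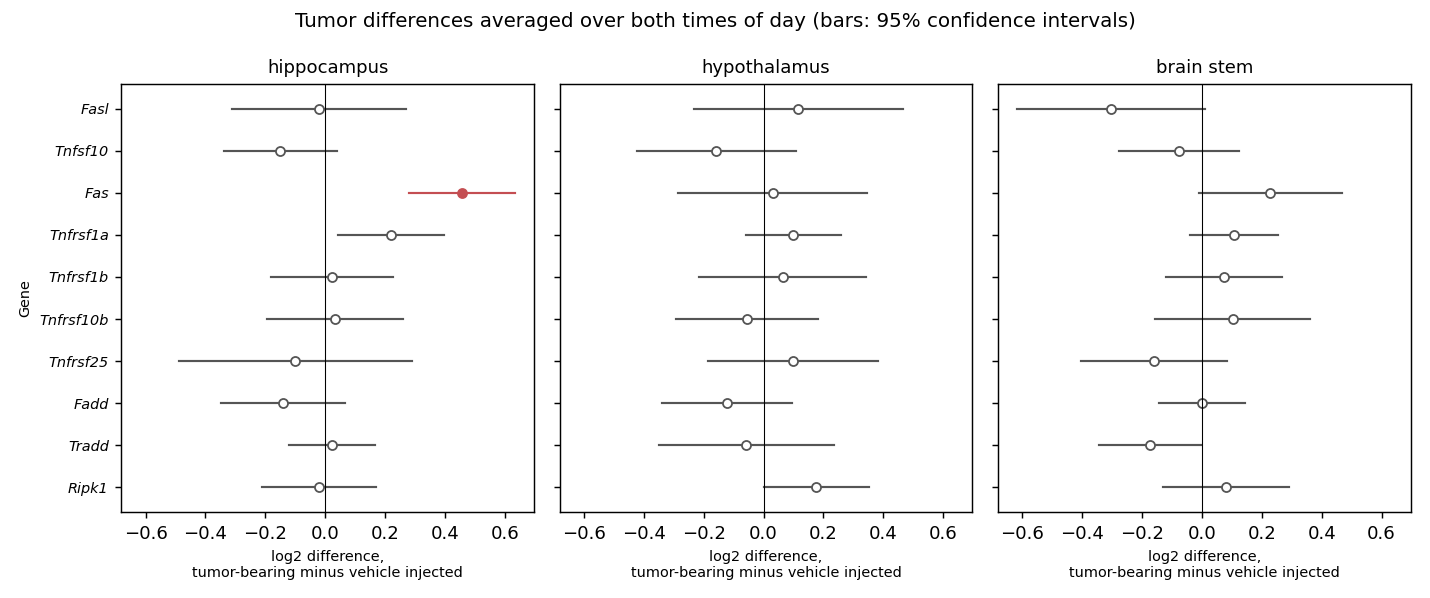
Log2 difference between tumor-bearing and vehicle injected mice, averaged over mid-dark and mid-light (horizontal axis), for each of the 10 genes (vertical axis) in the 3 regions, with bars for the 95% confidence interval and a filled red symbol for an adjusted p under 0.05. Only Fas in hippocampus, at 0.46, is filled.

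In the single-time comparisons outside hippocampus, 0 of 10 members were called in hypothalamus at either time, where 0% of the panel was called at each, and 0 in brain stem, where 0.26% was called at mid-dark and 0.78% at mid-light. Unadjusted, 0 members passed in hypothalamus at either time, beside 4.81% of the panel for mid-dark and 5.19% for mid-light. In brain stem 3 passed at mid-dark (Fasl, Tnfrsf10b and Fadd) and 1 at mid-light (Fadd), beside 7.28% and 4.81% of the panel. Fadd in brain stem took opposite signs, with -0.23 ± 0.10 (SE, adjusted p = 0.652) in the dark phase and 0.23 ± 0.094 (adjusted p = 0.808) in the light phase.

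The third question was whether the tumor difference depended on the time of collection. The interaction of tumor and phase called 0 of 10 members in each region and 0% of the panel in each. Unadjusted, 1 member passed in hippocampus (Tnfrsf25), 1 in hypothalamus (Tnfrsf10b) and 2 in brain stem (Fadd and Tnfrsf10b), beside 6.11%, 2.6% and 3.64% of the panel. The smallest unadjusted p among the members was that of Fadd in brain stem. Its values there were 5.99, 6.05, 6.20, 6.26 and 6.51 in the mid-dark tumor-bearing group and 6.36, 6.44, 6.44 and 6.48 in vehicle injected mice. At mid-light they were 6.31, 6.45, 6.58, 6.58 and 6.66 with tumor and 6.06, 6.27, 6.29, 6.37 and 6.45 without. The groups overlapped at both times, and the interaction of -0.46 ± 0.14 (SE) did not pass adjustment (adjusted p = 0.634). Tnfrsf10b had interactions of opposite sign, -0.50 ± 0.22 in hypothalamus (adjusted p = 1) and 0.56 ± 0.25 in brain stem (adjusted p = 0.999).

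The last question was whether the members followed the time of day. Averaged over tumor groups, 0 of 10 members were called in each region, beside 5.59% of the panel in hippocampus, 2.34% for hypothalamus and 4.94% for brain stem. Unadjusted, 2, 1 and 2 members passed, beside 18.7%, 13.2% and 15.9% of the panel. In the model over the 3 regions 1 of 10 members was called, where 13.5% of the panel was, a share of the same order, and 3 members and 25.6% of the panel had an unadjusted p under 0.05. The called member was Tnfrsf25.

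In hippocampus of vehicle injected mice Tnfrsf25 was 7.89, 7.93, 8.43, 8.47 and 8.55 at mid-dark, whereas mid-light mice had 6.57, 7.20, 7.59, 7.69 and 7.82. The tumor-bearing mice had 6.78, 7.70, 7.95, 8.11 and 8.18 at mid-dark, beside 7.33, 7.44, 7.74, 7.89 and 8.01 for those collected at mid-light. The vehicle injected groups did not overlap and the tumor-bearing groups did. The mid-dark minus mid-light difference was 0.88 ± 0.26 (SE, adjusted p = 0.0847) in vehicle injected and 0.06 ± 0.26 (adjusted p = 0.976) in tumor-bearing mice. The interaction of -0.82 ± 0.37 did not pass adjustment (adjusted p = 0.696), so a difference between the tumor groups in this respect was not shown.

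In the brain stem of vehicle injected mice Tnfrsf25 was 4.52, 4.58, 4.65 and 4.72 at mid-dark, whereas mid-light mice had 3.80, 4.07, 4.09, 4.25 and 4.47, again without overlap. Their hypothalamus gave 4.22, 4.55 and 4.73 for mid-dark, above 4.03, 4.07, 4.18 and 4.20 for mid-light. The times overlapped in tumor-bearing mice. Their brain stem ranged from 3.96 to 5.00 at mid-dark and from 3.82 to 4.27 at mid-light. Their hypothalamus ranged from 4.18 to 4.95 at mid-dark and from 3.88 to 4.64 at mid-light. Averaged over tumor groups the mid-dark minus mid-light difference was 0.47 ± 0.19 (SE) in hippocampus, 0.31 ± 0.13 for hypothalamus and 0.36 ± 0.12 for brain stem (adjusted p = 0.174, 0.302 and 0.0959). Over the 3 regions it was 0.38 ± 0.10 (1.30-fold, 95% interval 0.18 to 0.59, adjusted p = 0.00719). The filter on a mean log2 value of 5, which Tnfrsf25 passes only through its hippocampal level, is no separate check of this value. It was called in the other 27 alternatives, between 0.32 and 0.43. Among these, the ordinary p under 0.05 without adjustment is a looser cut on the same fit and no separate check either. The hippocampus call appeared without mouse 19 (0.59, adjusted p = 0.0276) and the brain stem call without mouse 23 (0.41, adjusted p = 0.0453). Tnfrsf25 was low in hypothalamus (3.88 to 4.95) and brain stem (3.80 to 5.00), and both enter the difference over the 3 regions.

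**Figure D4:**
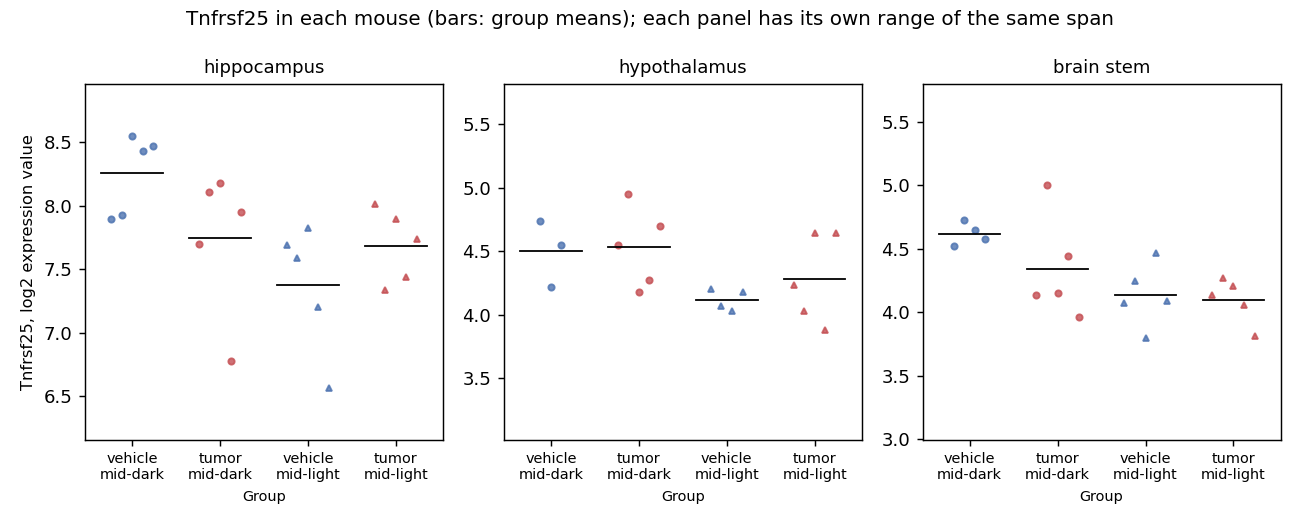
Log2 expression value of Tnfrsf25 (vertical axes, of equal span but different range) in every mouse of the 4 groups (horizontal axis) in the 3 regions, with circles for mid-dark, triangles for mid-light, red for tumor-bearing and blue for vehicle injected mice, and black bars for group means. In vehicle injected mice the mid-dark circles lie above the mid-light triangles in each region, and in tumor-bearing mice the times overlap.

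Markers of other cells moved with time of day in the same model. Of the 6 oligodendrocyte markers 4 (Cnp, Mag, Mog and Opalin) were lower at mid-dark over the 3 regions, with differences of the 6 from -1.11 to -0.08, whereas none of the 7 neuronal and none of the 4 hippocampal markers was called (differences of the neuronal markers from -0.11 to 0.04). In hippocampus the summed oligodendrocyte level was 14.4 to 15.5 at mid-dark and 15.1 to 15.7 at mid-light. Of the 7 endothelial markers Cldn5 was higher and Icam2 lower at mid-dark (differences of the 7 from -0.19 to 0.37), and the median of their summed level was 11.0 at mid-dark and 10.8 for mid-light in hippocampus, 11.1 and 10.8 for hypothalamus, and 11.1 and 11.0 for brain stem. Of the neutrophil markers Csf3r was higher at mid-dark (0.23) and Ly6g was not called (-0.11), with median summed levels of 6.71 and 6.50, 6.30 and 6.23, and 6.29 and 6.10 in the same order. The part of these cells in the Tnfrsf25 result was not tested. Without the 5 hippocampus samples with Ttr under 10 the Tnfrsf25 difference over regions was 0.35 (adjusted p = 0.0301).

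The other 9 members were not called by time of day over the 3 regions. Tnfrsf1a had the smallest adjusted p. Its difference was -0.12 ± 0.050 (SE) over the regions (adjusted p = 0.0922), with -0.10 in hippocampus, -0.09 for hypothalamus and -0.18 for brain stem (adjusted p = 0.599, 0.723 and 0.19). It was called without mouse 1 (-0.15, adjusted p = 0.0319) and without the block for mouse (-0.12, adjusted p = 0.0483). Fas was -0.11, -0.30 and -0.08 in the 3 regions (adjusted p = 0.542, 0.392 and 0.811). For the 9 members the differences over regions lay between -0.16 (Fas) and 0.06 (Fasl), and the median over the 10 members was 0.01, as over all genes.

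Other genes of the pathway were counted from 3 lists. Of 8 other ligands, 8 other receptors and 13 signalling genes measured, none was called for tumor against vehicle averaged over phases in any region or over the regions. The extremes over regions were Tnfsf4 (-0.32 ± 0.24, adjusted p = 0.699) and Lta (0.23 ± 0.092, adjusted p = 0.292) among ligands, Tnfrsf17 (-0.13, adjusted p = 0.724) and Ltbr (0.02, adjusted p = 0.928) among receptors, and Traf3 (-0.06, adjusted p = 0.679) and Cflar (0.06, adjusted p = 0.699) among signalling genes. The median was -0.09, -0.06 and 0.01 over the 3 lists, beside -0.01 over all genes.

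By time of day over the regions 0 of 8 ligands, 1 of 8 receptors and 2 of 13 signalling genes were called, all higher at mid-dark, beside 13.5% of the panel in either direction. Tnfrsf12a, the TWEAK receptor, rose by 0.21 ± 0.058 (SE, adjusted p = 0.0103), Traf3, a brake on the non-canonical NF-kB pathway, by 0.14 ± 0.040 (adjusted p = 0.0168), and Cflar, which encodes the caspase-8 inhibitor c-FLIP, by 0.14 ± 0.047 (adjusted p = 0.0355). Within regions, where 5.59% of the panel was called in hippocampus and 4.94% in brain stem, 2 of 13 signalling genes rose at mid-dark in hippocampus, Traf3 (0.20 ± 0.047, adjusted p = 0.0154) and Bid (0.30 ± 0.083, adjusted p = 0.0429). Bid links caspase-8 to the mitochondrial death pathway, and in brain stem it was lower at mid-dark (-0.22 ± 0.048, adjusted p = 0.0105). In brain stem Tnfrsf12a rose by 0.30 ± 0.070 (adjusted p = 0.0158) and Ngfr, the p75 neurotrophin receptor, was lower at mid-dark (-0.39 ± 0.080, adjusted p = 0.00935).

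Between regions 5, 3 and 4 of the 8 ligands, 6, 8 and 4 of the 8 receptors and 11, 11 and 7 of the 13 signalling genes were called, for hippocampus against hypothalamus, hippocampus against brain stem and hypothalamus against brain stem, beside 71.7%, 76.6% and 66.5% of the panel. Cd70, a ligand of T cell costimulation, was lower in hippocampus than in brain stem (-1.54 ± 0.11, SE, adjusted p = 9.41e-18), as was Tnfrsf12a (-1.59 ± 0.058, adjusted p = 2.94e-29). Bag4, an inhibitor of ligand-free TNF receptor 1 signalling, differed between hippocampus and brain stem by 1.04 ± 0.030 (adjusted p = 1.07e-33).

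Most of the remaining members were matched with panel genes over the 12 group means as a description. Tnfrsf1a ran most closely with Slc2a1 (Pearson r = 0.906), Pecam1 (0.903) and Cnp (0.896). Tnfrsf1b ran with Setd1a (0.946), Rsad2 (0.916) and Jarid2 (0.910), and Tnfrsf10b, after Osgin1, with Hist1h1d (0.698) and Lacc1 (0.655). Fadd ran with Cd74 (0.910), Map1lc3a (0.910) and Tmcc3 (0.896), Tradd with Tnfrsf13c (0.953), Pla2g4a (0.944) and Nefl (0.940), Ripk1 with Supt7l (0.910), Slc1a3 (0.897) and Dlx1 (0.860), and Fasl with Spib (0.854), Casp2 (0.828) and Sox4 (0.821). The 12 means span the 3 regions, so these r include the regional differences given above.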

How the data were processed

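RNA of perfused brain regions was assayed by the authors with a nanoString nCounter panel of mouse neuroinflammation genes, in which barcoded probes are counted without amplification. The deposited values are log2 expression values, made by the authors in nSolver by background subtraction and by normalization to positive controls and codeset content, followed by quantile normalization in Partek. Quantile normalization gives each sample the same distribution, so a shift of most genes together would be removed. The series lists 60 samples, of which 56 were analysed, and 1 row without a gene name was left out.

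Samples were grouped by region, tumor status, phase and mouse in their labels. Linear models used limma 3.58.1 under R 4.3.3, with 4 group means per region (769 or 770 genes that varied) or 12 group means with mouse as a random block (correlation 0.136, since the regions come from the same animals). The moderated test was adjusted by Benjamini-Hochberg over the panel and called at 0.05. The models were run on simulated data with tumor differences added. Errors there were independent between samples, so a correlation within a mouse was not simulated. Only the tumor comparisons averaged over phases were checked in this way. The most permissive of the 3 filters of the study, an ordinary p under 0.05, used there for tumor against vehicle at each time, was an alternative for all comparisons, beside a mean log2 filter of 5, other centring, the RNA purity ratio of the labels (absorbance) as covariate, quantile normalization per region, no block, and leaving out each mouse. Settings using Ttr were added after seeing the data. The members, lists and tests were chosen with earlier results of these data known. Named beside the members were the 3 panel genes most correlated with each (those of Tnfsf10 are not reported here), and from the 3 pathway lists the genes called and the extremes. Plots were drawn with matplotlib 3.10.9.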

Additional observations from a re-analysis of the deposited data

Results flagged for a closer look

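In each of 110 combinations of member and group with 4 or 5 samples, the gap of the highest or lowest sample to its neighbour was compared with the range of the group (Dixon's test at 95%). A sample stood apart in 6 of them, and chance alone gives about 1 in 20. Fasl was 4.55 in the brain stem of vehicle injected mouse 28 at mid-dark, where the others had 5.10 to 5.18. Tnfsf10 was 6.26 in the hypothalamus of tumor-bearing mouse 29 at mid-light (others 5.87 to 5.93) and 6.67 in the brain stem of vehicle injected mouse 2 at mid-light (others 6.18 to 6.33). Fas was 5.02 in the brain stem of tumor-bearing mouse 19 at mid-dark (others 5.67 to 5.87), and without that mouse the Fas difference over the 3 regions passed the test. Tnfrsf10b was 4.76 in the hippocampus of tumor-bearing mouse 7 at mid-dark (others 5.40 to 5.48). Ripk1 was 6.58 in the brain stem of tumor-bearing mouse 1 at mid-light (others 6.10 to 6.23). The reasons were not tested.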

How the results depend on the processing

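The counts of members called were recomputed in 579 combinations of a comparison and an alternative, of which 557 stayed within 1.5 times the count reported and 22 did not. The most permissive of the 3 filters of the study, an ordinary p under 0.05, used there for tumor against vehicle at each time and applied here to all comparisons, gave 2 members for tumor against vehicle in hippocampus at each time and averaged over phases, and 1 at each time in brain stem. It gave 2 for the tumor difference over regions and 1 for its variation between regions, 1 for the interaction in hypothalamus and 2 in brain stem. By time of day it gave 1 in hippocampus, 1 in hypothalamus, 2 in brain stem and 3 over regions. In these comparisons the rule called 2.47% to 9.35% of the panel for the tumor and its interactions and 13.1% to 25.3% by time of day. Without the replicate block for mouse, 1 member (Fas) was called for the tumor difference over regions and 2 (Tnfrsf25 and Tnfrsf1a) by time of day, and no other count over regions moved by more than 1.5 times. When single mice were left out, the count lay between 0 and 1 for tumor in hippocampus at each time (without mouse 28), for tumor over regions (without mouse 19) and by time of day in hippocampus (without mouse 19) and brain stem (without mouse 23), and between 1 and 2 by time of day over regions (without mouse 1). Leaving out the 5 hippocampus samples with Ttr under 10 gave 1 member for tumor in hippocampus at mid-dark (Fas, 0.62, adjusted p = 0.0285). Of 1228 values for single members, which cover the 44 pairs of a member and a counted comparison with an unadjusted p under 0.05, 1173 kept their direction and side of the threshold, 35 newly passed it, 20 no longer passed it and none changed sign. Groups held 3 to 5 mice and the depth is unknown. Values were under 5 in 31 of 56 samples for Fasl, 21 for Tnfrsf10b and 36 for Tnfrsf25.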
